A study of Homo sapiens with 6 samples.

Results

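The chromosome 19 microRNA cluster (C19MC) is the family described here, as 49 of the 1891 human probes on a microRNA (miRNA) array. A probe belonged to it by its name alone, which had to be miR-498, miR-512, miR-515 to miR-527, miR-1283 or miR-1323, with any letter or arm. The 49 probes carry 59 miRNA names, because some capture several miRNAs of the same or nearly the same sequence. No measured value entered this rule, though the members were chosen with earlier results of these data known.

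C19MC is a primate-specific, imprinted cluster of miRNA genes that is transcribed from the paternal allele. It is known for high expression in placental trophoblast, with some expression in embryonic stem cells, and for silence in most adult tissues, where its promoter is methylated. A mature miRNA represses messenger RNAs mainly through bases 2 to 8 of its sequence, the seed, and many members of the cluster have seeds that differ by a base or by a shift of a base.

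RNA came from Lovo, SW620 and HT29, 3 established human lines of colorectal cancer, with 1 knockdown and 1 control sample of each and 6 arrays in all. Knockdown cells carried a stably transfected pSUPER gfp-neo vector encoding a short hairpin RNA (shRNA) that targets TGFB1, which codes for the secreted growth factor TGF-β1. Control cells carried the same vector with a control shRNA, so both groups share the vector and its selection marker, and the design asks for miRNAs that change with less TGFB1. The groups follow the sample titles and source names. The fields for vector and genotype go against them, naming the knockdown vector for the Lovo control sample and the control vector for the HT29 knockdown sample, so every direction stated for Lovo and HT29 rests on the titles. TGFB1 is a messenger RNA with no probe on these arrays, and its level was not checked.

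The signal of a probe on an array is its foreground minus background intensity, taken as the median of 4 spots, and a signal of 50 or more counted as detection. Of the 49 C19MC probes, 10 were detected on at least 1 array (20.4%) and 39 on none. The arrays measured bulk RNA, in which fewer expressing cells and less RNA per cell cannot be told apart. Among all 1891 human probes 36.2% were detected on at least 1 array. Detection on all 6 arrays was reached by 4 C19MC probes (8.16%), against 13.5% of all human probes. The 4 were those of miR-498, miR-519e-3p, miR-519e-5p and a probe shared by the 5p arms of 6 hairpins. The probes of miR-516b-5p and miR-520e were detected on 5 arrays, that of miR-523-3p on 3, those of miR-515-3p and miR-518b on 2, and that of miR-522-3p on 1.

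The mature sequences below are those of RefSeq with the assembly GRCh38.p14, in which 47 of the 49 probes and 56 of the 59 names had an entry. All lie on chromosome 19 and are written 5′ to 3′ with the seed in capitals. The first 6 are shown because their probes were detected on 5 or 6 arrays, and the array's names miR-498 and miR-520e, which give no arm, were read as the 5p and the 3p arm by the older naming.
miR-498: uUUCAAGCcagggggcguuuuuc
miR-519e-3p: aAGUGCCUccuuuuagaguguu
miR-519e-5p: uUCUCCAAaagggagcacuuuc
miR-518e-5p, also miR-519a-5p, miR-519b-5p, miR-519c-5p, miR-522-5p and miR-523-5p: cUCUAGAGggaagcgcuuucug
miR-516b-5p: aUCUGGAGguaagaagcacuuu
miR-520e: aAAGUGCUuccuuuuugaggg

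The next 5 are shown because each is a near copy of one of those 6 and its probe was detected on no array.
miR-520f: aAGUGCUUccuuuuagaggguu
miR-515-5p: uUCUCCAAaagaaagcacuuucug
miR-518d-5p, also miR-520c-5p and miR-526a: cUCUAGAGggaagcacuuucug
miR-516a-5p: uUCUCGAGgaaagaagcacuuuc
miR-520b: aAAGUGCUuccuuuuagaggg

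Substitutions between these copies are written with the base of the detected miRNA first, the position counted from 1 at the 5′ end, and the base of the undetected miRNA last. The 5p sequence of 6 hairpins and the 5p sequence of miR-518d, miR-520c and miR-526a differ by G15A and share their seed, and their probes were detected on 6 arrays and on none. Between miR-520e and miR-520b the difference is U16A, again with the same seed, and the probes were detected on 5 arrays and on none. The difference between miR-519e-5p and miR-515-5p is G12A and G13A over the aligned bases, also outside the shared seed, with detection on 6 arrays and on none. For miR-519e-3p and miR-520f it is C7U and U19G, and for miR-516b-5p and miR-516a-5p it is A1U, G5C and U10A, so that in both pairs the seed differs. These pairs were picked out after the values were seen, and how far a probe tells such copies apart was not tested. Because 6 mature miRNAs have 1 sequence in common, the shared probe cannot say which hairpin its signal came from.

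RefSeq places 46 hairpin genes of the cluster at chr19:53666679-53762430, a stretch of 95.8 kb, and all 46 had a probe matched by name or by identical mature sequence. For 14 genes at least 1 probe was detected on at least 1 array. Of these, 4 were reached only by the shared 5p probe, and 4 (MIR515-1, MIR515-2, MIR516B1 and MIR516B2) only by a probe that cannot tell 2 copies of a hairpin apart. The other 6 (MIR498, MIR520E, MIR519E, MIR523, MIR518B and MIR522) had a detected probe that matched no other hairpin of the cluster. Of the genes at positions 4 to 7 of the cluster (MIR498, MIR520E, MIR515-1 and MIR519E, chr19:53674197-53680023, 5.8 kb), each had a detected probe, that of MIR515-1 being shared with MIR515-2, a run noticed after the values were seen. In 3 genes with at least 2 probes all of them were detected, namely MIR519E by a probe for each arm, and MIR523 and MIR522 by their own 3p probe and the shared 5p probe. By arm, 4 of 22 probes named as 3p, 3 of 14 named as 5p and 3 of 13 with no single arm were detected on at least 1 array. Detected members had a median GC content of 50% (9 with a sequence) and undetected members one of 45.45% (38), against 50% for both detected and undetected human probes outside the cluster.

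**Figure D1:**
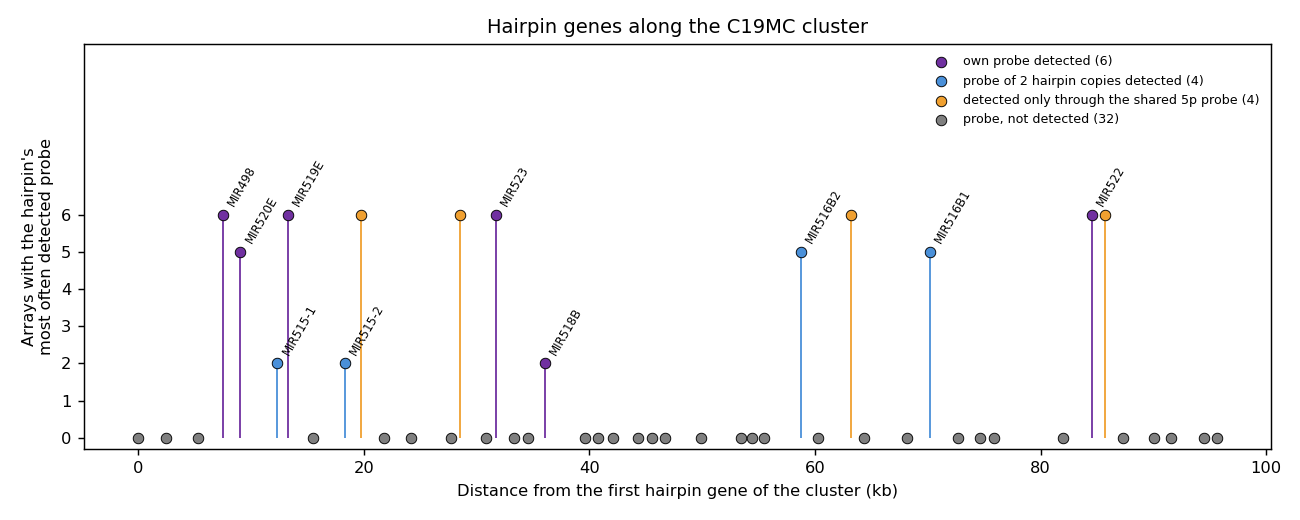
The 46 hairpin genes of the cluster by distance in kb from the first one (x axis), with the number of arrays on which the most often detected probe of each hairpin was detected (y axis). Purple points (6) have a detected probe of their own, blue points (4) only one shared by 2 hairpin copies, orange points (4) only the shared 5p probe, and grey points (32) have probes that were not detected; MIR523 and MIR522 stand at 6 arrays because of the shared 5p probe, their own 3p probes being detected on 3 arrays and on 1.

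Most members had signals near those of the negative control probes, and 2 are given here as examples, chosen after their values were seen. The probe of miR-517a-3p and miR-517b-3p, abundant trophoblast miRNAs that are also found in maternal plasma, had signals of -20 in Lovo knockdown and -67.5 in Lovo control cells, -104 in SW620 knockdown and -50 in SW620 control cells, and -105 in HT29 knockdown and -113 in HT29 control cells. Signals of miR-512-3p, encoded by the first hairpins of the cluster, were -31.5 in knockdown against -81.5 in control cells of Lovo, -99.5 against -67.5 in those of SW620, and -115 against -118.5 in those of HT29. All 6 values were below 0 for both probes, as they were for miR-519d, miR-1323 and miR-517c-3p. For the 39 undetected members the median signal was -25.5, -90.5 and -86.5 on the Lovo, SW620 and HT29 knockdown arrays, against -65, -47.5 and -102.5 on the control arrays. Medians of the 7 negative control probes were -18, -66.5 and -71 on the knockdown arrays, against -67, -31.5 and -91 on the control arrays. The highest signal of any of the 39 was 21.5, that of the probe for miR-520g and miR-520h on the Lovo knockdown array.

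The label of a placental cluster was set against 5 trophoblast miRNAs outside it. Neither miR-371a-3p, nor miR-372, nor miR-373-3p, all of a neighbouring cluster active in embryonic and germ cells, was detected on any array. The other two, miR-141-3p and miR-200c-3p, which epithelia also express, were both detected on the 2 Lovo arrays only, apart from miR-200c-3p on the SW620 control array (81). Of 8 gut epithelial markers, 7, 1 and 1 were detected on the Lovo, SW620 and HT29 knockdown arrays, against 5, 2 and 0 on the control arrays. Blood cell markers (5) were detected 1, 3 and 3 times on the knockdown arrays and 3 times on each control array. Fibroblast and smooth muscle markers (5) were detected 1, 3 and 2 times on the knockdown arrays and 3, 3 and 5 times on the control arrays. Summed signals of the gut list, with values below 0 set to 0, ran between 102.5 and 8559 in knockdown and between 32.5 and 1306.5 in control samples. Those of the blood list were 279 to 1383 in knockdown and 694.5 to 3261.5 in control samples, and those of the fibroblast list 334.5 to 1776.5 in knockdown and 2550.5 to 4809.5 in control samples. The trophoblast list summed to 14.5 to 5658 in knockdown and 22.5 to 369 in control samples. On the SW620 and HT29 arrays at most 2 of the 8 epithelial markers were detected, and miR-215 was below 0 on all 6 arrays. The part of these lists in the C19MC values was not tested.

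On each array the share of C19MC probes detected was below that of all human probes. On the Lovo knockdown array 10 of 49 were detected, 20.4% with a Wilson 95% interval of 11.5% to 33.6%, against 28.7% of all human probes. On the Lovo control array 5 were detected, 10.2% (4.44% to 21.8%), against 25.4%. The Lovo knockdown array thus held all 10 members seen anywhere, and its control 5 of them.

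In SW620 the order was the other way, with 6 members detected on the knockdown array (12.2%, 5.73% to 24.2%) and 8 on the control array (16.3%, 8.51% to 29.0%). All human probes stood at 21.0% on the knockdown and 26.5% on the control array. In HT29, 6 were detected on the knockdown array (12.2%, 5.73% to 24.2%) and 7 on the control array (14.3%, 7.10% to 26.7%), beside 22.2% of all human probes in knockdown and 22.5% in control. The intervals cover counting over probes only, those of knockdown and control overlapped in every line, and no test was made.

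In Lovo and SW620 the array with the lower background had the higher count of members detected. Median background was 86, 173 and 199 on the Lovo, SW620 and HT29 knockdown arrays, against 146, 138 and 202 on the control arrays. The Lovo knockdown array, with the lowest background, also was the one array on which a negative control probe was detected (57.5). The part of background in these counts was not tested. Closest above the cutoff of 50 were miR-520e on the Lovo knockdown array (54.5), miR-519e-5p on the HT29 control array (63) and miR-516b-5p on the SW620 control array (68.5). Closest below it were miR-518b on the Lovo control array (39.5), miR-515-3p on the SW620 control array (32.5) and miR-523-3p on the Lovo control array (23.5).

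**Figure D2:**
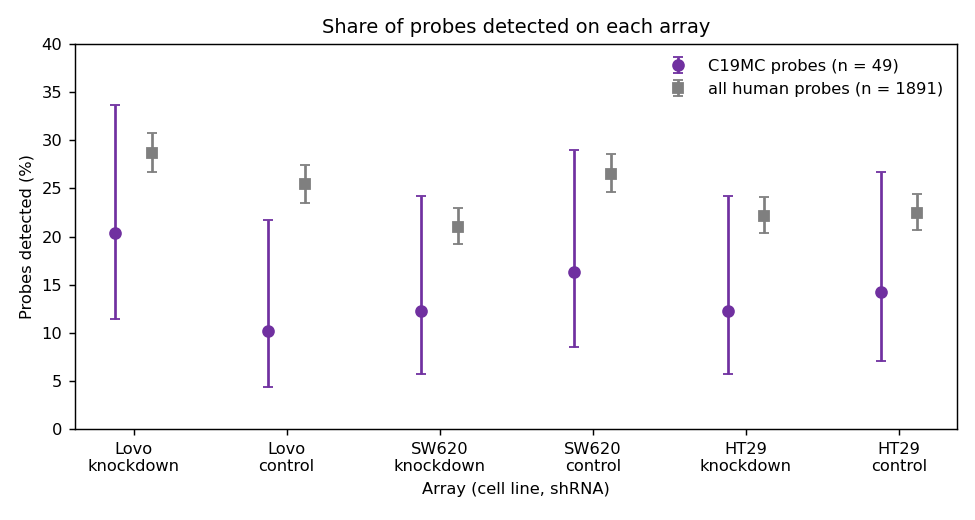
Percent of probes detected (y axis) on each array, knockdown left of control for each line. Purple circles are the 49 C19MC probes and grey squares all 1891 human probes, with Wilson 95% intervals; the C19MC share was between 10.2% and 20.4% and below that of all human probes on every array.

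Among the detected members miR-498, known in ovarian cancer cells to repress the telomerase gene TERT, had 4 of 4 spots at or above 50 on every array. Its signals were 952.5 in knockdown and 603.5 in control cells of Lovo, 707.5 in knockdown and 525.5 in control cells of SW620, and 340 in knockdown and 479.5 in control cells of HT29. In Lovo and SW620 the knockdown array was higher and in HT29 lower, and the groups overlapped. Its log2 values after normalisation between arrays averaged 9.77 ± 0.64 in knockdown and 9.39 ± 0.32 in control samples (SD, n = 3 lines each). The log2 difference was 0.91 ± 0.25 in Lovo (SE over 4 spots per array, technical error only), 0.10 ± 0.11 in SW620 and 0.12 ± 0.39 in HT29. The 4 spots of each detected member lie in 2 blocks of the array, and every SE over spots treats them as independent. For miR-498 in HT29 the direction differed by block. Block 11 had 437 and 665 in knockdown against 128 and 311 in control. Block 29 had 225 and 243 in knockdown against 648 and 673 in control. In HT29 the ratio of the signals was 0.709, on the other side of no change, and the log2 difference lay within its SE over spots; spot summary, background correction and normalisation all differ between these 2 values.

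The shared 5p probe had signals of 154 in Lovo knockdown and 78.5 in Lovo control cells. They were 156 in knockdown and 71.5 in control cells of SW620, and 155.5 in knockdown and 128.5 in control cells of HT29. All 3 knockdown values were above all 3 control values, in signals and in normalised values. Spots overlapped in HT29, where they ran between 100 and 296 on the knockdown array and between 37 and 222 on the control array. The direction there differed by array block. Block 15 had 296 and 207 in knockdown against 75 and 37 in control, while block 33 had 100 and 104 against 182 and 222. The log2 differences were 0.34 ± 0.14, 0.64 ± 0.07 and 0.23 ± 0.25 in Lovo, SW620 and HT29, and the group means 8.41 ± 0.13 in knockdown and 8.01 ± 0.22 in control samples.

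From MIR519E both arms were detected on every array. The 3p arm, miR-519e-3p, had signals of 277 in knockdown and 353.5 in control cells of Lovo, 198 in knockdown and 315.5 in control cells of SW620, and 244 in knockdown and 293.5 in control cells of HT29. Each knockdown value was below the control of its own line. The highest knockdown signal, 277 in Lovo, was also below the lowest control signal, 293.5 in HT29, so the groups did not overlap. Of the 4 members detected on every array, the signals of 2 (this one and the shared 5p probe) did not overlap between groups, in opposite directions, beside 21.5% of the 256 human probes detected on every array (21.1% in normalised values, which separated the same 2 members), and 4 members are too few to set against that share. The log2 differences of miR-519e-3p were -0.19 ± 0.28, -0.44 ± 0.14 and -0.04 ± 0.12 in Lovo, SW620 and HT29. Those in Lovo and HT29 were smaller than their SE over spots.

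Signals of the 5p arm, miR-519e-5p, were 161 in knockdown and 134.5 in control cells of Lovo, 145 in knockdown and 242 in control cells of SW620, and 225.5 in knockdown and 63 in control cells of HT29. The groups overlapped, with knockdown lower in SW620 and higher in HT29. In Lovo the direction differed by block. Block 5 had 239 and 168 in knockdown against 44 and 82 in control, while block 23 had 154 and 147 against 187 and 213. The HT29 knockdown value rested on spots that differed widely, between 86 and 507, against 35 to 133 on the control array. In Lovo its log2 difference was 0.18 ± 0.23, in SW620 -0.42 ± 0.11 and in HT29 0.72 ± 0.34, where the ratio of signals was 3.58; the offset of 50 added during background correction shrinks differences of dim probes.

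The probe of miR-516b-5p had signals of 133 in knockdown and 23 in control cells of Lovo, 83 in knockdown and 68.5 in control cells of SW620, and 81.5 in knockdown and 135.5 in control cells of HT29. It was not detected on the Lovo control array, and the groups overlapped. One spot on that array read -410, and the others 21, 25 and 146. In Lovo the knockdown level was 1.61-fold above the lowest detected value of the control array. The probe's own value on that array was lower, with a log2 difference of 0.82 ± 0.56 (SE over spots), and it included the spot at -410. The 1.61-fold is a bound only without allowance for spot error, as are the folds given as at least below. Where a probe's own value was the higher, its measured fold is given below, without allowance for spot error. The log2 differences in SW620 and HT29 were 0.44 ± 0.16 and -0.35 ± 0.25. In both lines the direction differed by block. In SW620 block 16 had 75 and 81 in knockdown against 96 and 85 in control, and block 34 had 85 and 209 against 50 and 52. In HT29 block 16 had 134 and 135 in knockdown against 80 and 80 in control, and block 34 had 29 and -1 against 250 and 191.

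The family of miR-520c and miR-373, to which miR-520e belongs by its seed, is known in breast cancer cells to repress the TGF-β receptor gene TGFBR2 and the NF-κB gene RELA. Signals of miR-520e were 54.5 in knockdown and 144 in control cells of Lovo, 164 in knockdown and 198.5 in control cells of SW620, and 16 in knockdown and 95 in control cells of HT29. By these medians each knockdown signal was below the control of its line, while the groups overlapped. In SW620 the direction differed by block. Block 11 had 103 and 135 in knockdown against 217 and 209 in control, while block 29 had 298 and 193 against 188 and 129. On the HT29 control array the spots ran between 12 and 227, with 2 of 4 at or above 50. The log2 differences were -0.62 ± 0.21 in Lovo and 0.03 ± 0.18 in SW620, where the ratio of the signals was 0.826. In HT29, where the knockdown array did not detect it, the measured control level was 1.46-fold higher (log2 difference -0.54 ± 0.24).

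Within the cluster, 4 more probes have the seed AAGUGCU of miR-520e. They are the probes of miR-520a-3p, of miR-520d-3p, of miR-520b together with miR-520c-3p, and of miR-520c-3p alone, and all 4 were detected on no array.

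The remaining members crossed the cutoff on some arrays only. For miR-523-3p the signals were 126 in knockdown and 23.5 in control cells of Lovo, -21 in knockdown and 105.5 in control cells of SW620, and 103.5 in knockdown and -40.5 in control cells of HT29. Knockdown was 1.38-fold higher as measured in Lovo and at least 1.49-fold higher in HT29. Control was at least 1.43-fold higher in SW620, so the detected side changed with the line. The HT29 knockdown detection rested on block 20 of the array, with spots of 229 and 203, against 4 and -17 in block 2. Its log2 difference there was 0.76 ± 0.33 (SE over spots). For miR-515-3p knockdown was 1.20-fold higher in Lovo (100.5 against 20.5) and control 1.39-fold higher in HT29 (5 in knockdown against 109 in control). These are measured log2 differences of 0.26 ± 0.33 and -0.47 ± 0.45 (SE over spots). On that HT29 control array 2 of its 4 spots were at or above 50 and the spots ran between -92 and 323. For miR-518b, measured knockdown was 1.14-fold higher in Lovo (98 against 39.5) and measured control 1.18-fold higher in SW620 (5.5 in knockdown against 85 in control). Only the Lovo knockdown array detected miR-522-3p (121, against 4.5 in control), with 4 of 4 spots at or above 50 there and none on the other arrays. No C19MC probe was detected on all arrays of one shRNA group and on none of the other.

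**Figure D3:**
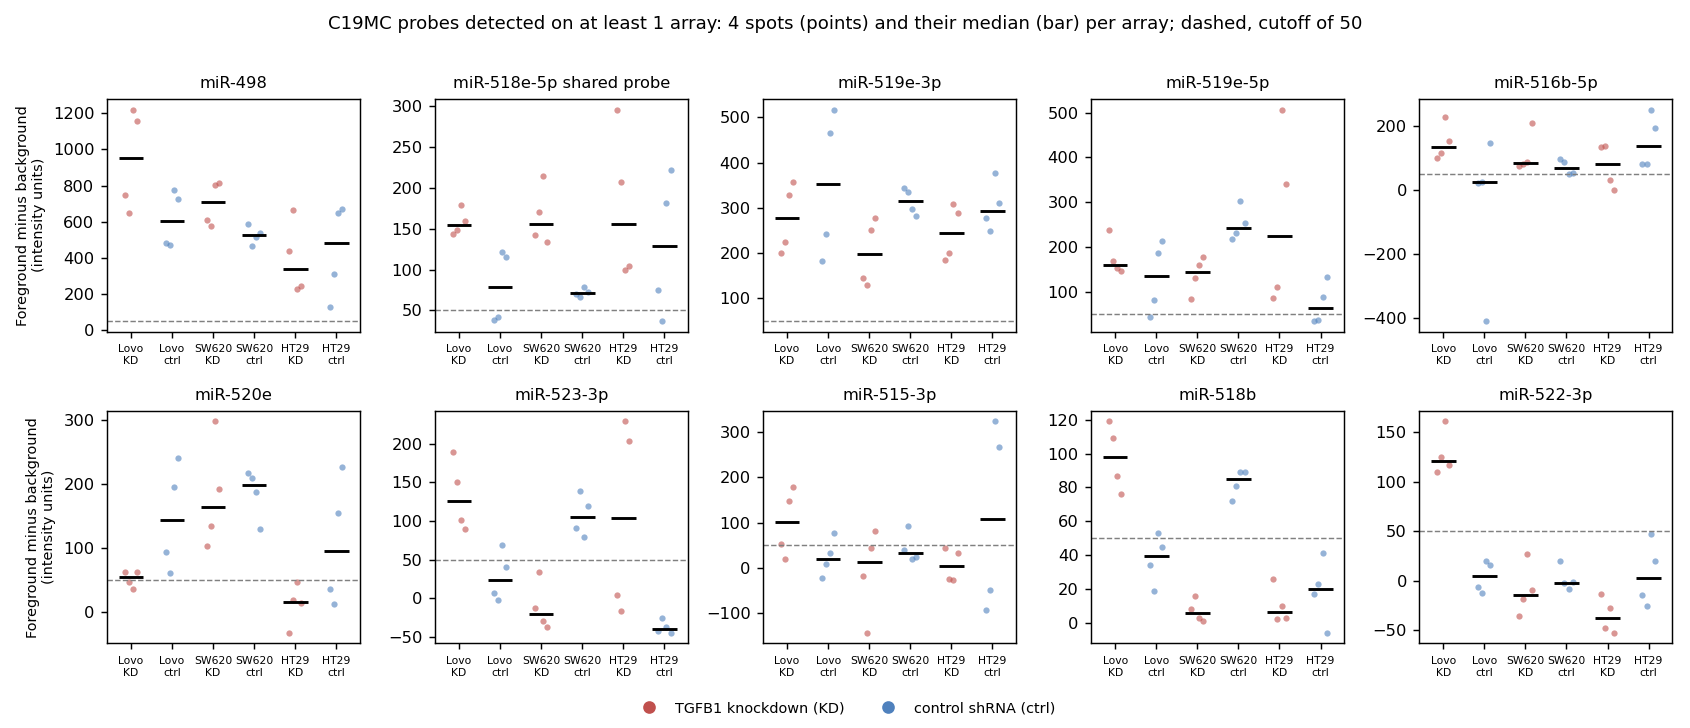
Signal (foreground minus background, intensity units, y axis; each panel has its own scale) of the 10 C19MC probes detected on at least 1 array, with knockdown (red) left of control (blue) for each line. Points are the 4 spots, the bar is their median and the dashed line is the cutoff of 50. By these medians the shared 5p probe is higher and miR-519e-3p lower in knockdown in every line. In HT29 the spots of the shared 5p probe go opposite ways by array block. The lowest spot of miR-516b-5p on the Lovo control array is at -410.

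Knockdown was then compared with control across the lines by limma, with the cell line as a block, over the 570 human probes detected on at least 2 arrays. C19MC had 9 probes in that fit, and miR-522-3p and the 39 undetected probes were not fitted. None of the 9 passed an adjusted p of 0.05 by limma with Benjamini-Hochberg adjustment over all 570, and neither did any other human probe (percent called 0.0; other normalisations and left-out arrays called up to 26 probes, no member among them). At an unadjusted p under 0.05 there were 0 of the 9 as well, beside 10.7% of all tested probes (61 of 570). The smallest unadjusted p among members, from limma, was 0.179, that of the shared 5p probe.

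Of the 9 mean log2 differences, 5 were above 0 and 4 below, with a median of 0.16, against 0.05 over all 570 probes. The members' median was 0.0477 without the Lovo pair and -0.025 without the HT29 pair. They ran between -0.38 and 0.40, while those of all tested probes ran between -2.01 and 2.37. The highest was that of the shared 5p probe (0.40 ± 0.28, limma SE, n = 3 pairs, adjusted p 0.596). Next stood miR-498 (0.38 ± 0.38, limma adjusted p 0.732), whose mean was 0.11 without the Lovo pair, and miR-516b-5p (0.31 ± 0.31, limma adjusted p 0.729), whose mean was 0.048 without the Lovo pair and 0.631 without the HT29 pair. The lowest were miR-520e (-0.38 ± 0.28, limma adjusted p 0.615) and miR-519e-3p (-0.22 ± 0.33, limma adjusted p 0.817). The others were miR-523-3p (0.23 ± 0.32), miR-519e-5p (0.16 ± 0.33), miR-515-3p (-0.11 ± 0.28) and miR-518b (-0.06 ± 0.26).

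With 3 pairs and 2 residual degrees of freedom, limma's variance was moderated over all fitted probes. Differences of this size could not be resolved against that moderated variance. Scaling the arrays on spike control probes moved the median of all tested probes to 0.57, and with that scaling miR-519e-3p (0.37) and miR-520e (0.16) had positive means.

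**Figure D4:**
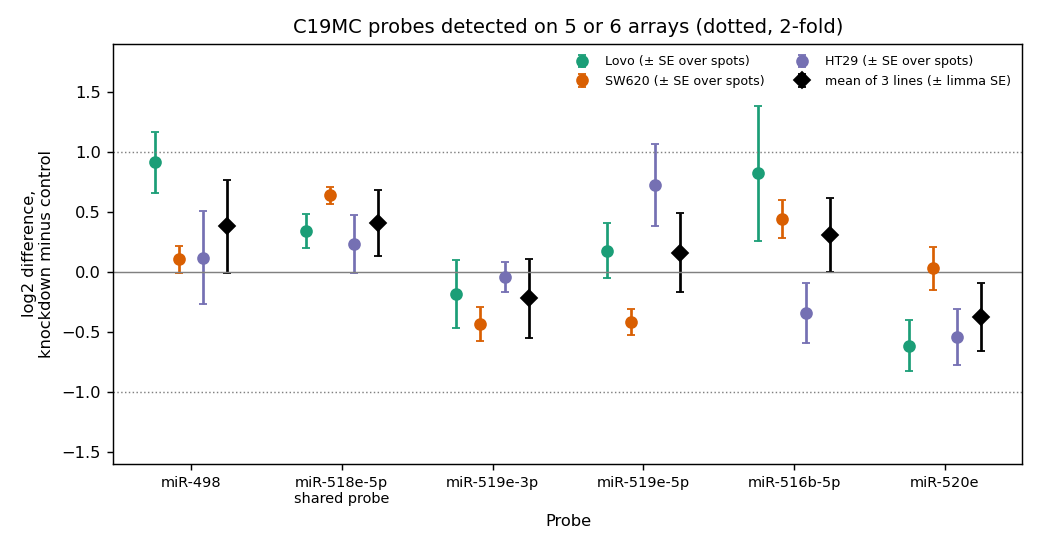
Log2 difference of normalised intensity, knockdown minus control (y axis), for the 6 C19MC probes detected on 5 or 6 arrays. Coloured circles are the lines with the SE over spots, black diamonds the mean of 3 lines with the limma SE and dotted lines a 2-fold difference; no circle reaches 2-fold, and the means lie between -0.38 and 0.40.

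Within a line there is 1 array per condition and no test, so the count is of probes with both signals at 50 or more that differed at least 2-fold. In Lovo 0 of 5 C19MC probes reached it, beside 12.5% of 408 human probes. In SW620 it was 0 of 6, beside 14.4% of 368, and in HT29 0 of 5, beside 11.9% of 318. The widest differences within a line were those of miR-498 in Lovo (0.91) and miR-519e-5p in HT29 (0.72). After normalisation 3 of the 4 members seen on every array had 1 sign in all lines, miR-498 and the shared 5p probe above 0 and miR-519e-3p below. Over all human probes detected on all 6 arrays that share was 39.8% (102 of 256).

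Between lines, with the shRNA as a block, limma's F-test called 0 of the 9 members and 0 of 570 probes (up to 24 probes in alternatives, no member among them). At an unadjusted p under 0.05 the F-test had 0 of 9 members and 5.61% of all probes, and the smallest adjusted p among members was 0.907. The member highest in 1 line was miR-520e, 0.61 ± 0.30 (log2, limma SE) in SW620 against the mean of the other lines. For miR-498 the value was 0.58 ± 0.41 in Lovo and -0.74 ± 0.41 in HT29, each against the mean of the other lines (limma F-test adjusted p 0.907).

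Related miRNAs outside the cluster were compared by seed. Some seeds of the cluster are also those of miRNAs known from proliferating and stem cells. The seed AAAGUGC of miR-519d and miR-526b-3p is that of miR-17-5p, miR-20a-5p, miR-20b-5p, miR-93-5p, miR-106a-5p and miR-106b-5p, which restrain cell cycle inhibitors such as CDKN1A. Both C19MC probes with this seed were undetected on every array, while the 6 others were detected on 3 to 6 arrays. The seed AAGUGCU of miR-520e is that of the miR-302 family of embryonic stem cells, of miR-372 and of miR-373-3p; of those, miR-302a-3p and miR-302e were detected on all 6 arrays and miR-302b-3p, miR-302c-3p, miR-302d-3p, miR-372 and miR-373-3p on none.

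Among the 1613 human probes with a matched sequence, 16 outside C19MC shared a seed with a member, and 8 were detected on at least 2 arrays. Of these 8, 1 had a mean log2 difference above 0 (miR-302a-3p, 0.35 ± 0.38) and 7 below, with a median of -0.57. None was called by limma after adjustment. At an unadjusted limma p under 0.05 there was 1 of the 8, beside 10.7% of all 570 tested probes. It was miR-20a-5p at -1.14 ± 0.42 (limma adjusted p 0.355). Its signals were 2501 in knockdown and 4578.5 in control cells of Lovo, and 904 in knockdown and 3814 in control cells of SW620. In HT29 they were 1248.5 in knockdown and 3824 in control cells. The groups did not overlap, which held for 21.5% of the 256 human probes detected on every array. The median of the 9 tested C19MC probes was 0.16; whether the lists differ was not tested.

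The miR-371 to miR-373 cluster, whose members share seeds and expression in early embryonic cells with C19MC, begins 25.2 kb downstream of its last hairpin. Of its 7 probes, miR-371b-5p was detected on all 6 arrays, miR-371b-3p on 1 and the other 5 on none. Signals of miR-371b-5p were 1793 in knockdown and 780.5 in control cells of Lovo, 1115.5 in knockdown and 454 in control cells of SW620, and 895.5 in knockdown and 969.5 in control cells of HT29. Its mean log2 difference was 1.00 ± 0.41 and did not pass adjustment (limma adjusted p 0.439). As in C19MC, 1 or a few probes of the neighbouring cluster were detected on every array and most on none.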

How the data were processed

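Total RNA of 6 cell line samples was labelled at the 3' end with Hy3 and hybridised to arrays of 1 colour whose probes contain locked nucleic acid, per the labels' protocols. Not given in the sources used here were the scanner, the software and the way background was measured. The deposited raw table holds foreground and foreground minus background intensity per spot, per the file headers. The authors' value table holds a ratio, within 1% of the signal over an array-wide factor for 100% of its values (282.75 to 353.75, origin unknown). Its column medians were 0.372, 0.551 and 0.537 for Lovo, SW620 and HT29 knockdown and 0.493, 0.446 and 0.638 for the controls, so it is linear and not centred.

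Intensities were background-corrected (normexp, offset 50), log2-transformed, averaged over spots and quantile-normalised over 3462 probes without controls (limma 3.58.1, R 4.3.3). Human probes with a signal of 50 or more on at least 2 arrays were fitted by lmFit and eBayes with a trend, with cell line as the block, as each pair shares its line, and with Benjamini-Hochberg adjustment over the 570 fitted probes. An adjusted p under 0.05 was called. Arrays carry no counts, so their number limits the precision. Per the labels cultures were grown and harvested independently, with 1 array each. The residual behind the p-values is how far the knockdown difference varied between lines, not the spread of levels between lines. Each probe's variance was moderated by eBayes towards the trend over all fitted probes, so it is not the probe's own spread alone.

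Members, lists, tests and named miRNAs were chosen with earlier results of these data known. Any member could be named, and those detected on all 6 arrays, those differing at least 2-fold within a line and the 5 brightest on average were to be given on every array. The fit was tested on simulated data with independent noise and no differences between lines. The differences added there were larger than any member's mean difference, so those runs cannot show how the fit treats differences of the members' size. Alternatives covered background correction, normalisation, scaling, filter, cutoff, spot averaging, the value table, the block, the variance model, and left-out pairs and arrays.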

Additional observations from a re-analysis of the deposited data

How the results depend on the processing

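In 24 alternatives to the fit, limma called 0 C19MC probes across lines and 0 between lines. Among all 570 probes it called 11 across lines and 12 between lines when arrays were scaled on medians, 5 and 1 after cyclic loess, 6 and 2 with robust eBayes, 21 and 7 in the authors' table, 25 and 10 without the SW620 pair, 25 and 8 without the HT29 pair, 24 to 26 and 8 to 24 without a single SW620 or HT29 array, and 0 and 1 with spike control scaling; the other alternatives, those without Lovo arrays included, called 0. Without the replicate block, which the same cell line within each pair supports, the count across lines was 0 as well. The median was again 0.16, a value that the balanced design fixes. The median difference of the tested members (0.16) was 0.51 with plain background subtraction, 0.0398 without normalisation between arrays, 0.24 with median scaling, 0.72 with spike control scaling, -0.0056 without the filter on dim probes and 0.27 over probes detected on all 6 arrays. It was 0.0477 without the Lovo pair, 0.24 without the SW620 pair and -0.03 without the HT29 pair; leaving out single arrays gave -0.025 to 0.2385. Counts at 2-fold or more (0 in each line) became 3 in Lovo, 2 in SW620 and 2 in HT29 with plain subtraction (all probes 177 of 408, 164 of 368 and 115 of 318), 5 in HT29 with spike control scaling (289 of 318) and 1 in HT29 in the authors' table (84 of 318). Turned in sign were miR-519e-3p (0.366) and miR-520e (0.158) with spike control scaling and miR-519e-5p without the HT29 pair or either HT29 array (-0.121); leaving out single arrays gave this probe -0.121 to 0.45. The other 3 members in 5 or 6 arrays kept their direction in all alternatives run. Shares of members detected lay between 8.16% and 20.4% with cutoffs of 25 and 100. The cause of these shifts was not tested, except that fewer probes or lines enter where they are left out. Of the 10 detected members, 7 had no signal above 198.5.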
